A study of Arabidopsis thaliana with 12 samples.

Results

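The genes described here are 31 Arabidopsis genes that were at least 2-fold brighter in leaf than in stem. The array's gene table listed them by locus code alone, which does not mean that they have no name elsewhere. They were chosen from an array table of 3439 probes, on which 691 genes had a probe of their own, 598 of them listed by locus code alone. A probe was eligible when the array's gene table gave it exactly 1 gene, written as a locus code and not as a symbol, and when 4 or more samples of leaf and 4 or more of stem read above 0. Of 438 such genes, 34 had a mean in stem that was lower than in leaf by at least 1 on the log2 scale; over all tested probes, named or not, 11.3% were. The rule leaves out 5 named loci, 3 of which were among the 34, and the 31 that remained are 7.08% of the 438. The stem and leaf means of all 12 samples thus chose the genes. Every difference between the tissues given below is a description of that choice and carries no test.

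A locus code gives the chromosome of an Arabidopsis gene and its place in the order along it, and says nothing of what the gene does. Many genes of this plant are still known mainly by such a code, whereas the best studied leaf genes carry symbols for their part in photosynthesis. Leaf blades consist largely of green mesophyll cells that fix carbon. Stems hold more vascular and supporting tissue, although their outer layers are green too. None of the 31 genes had a symbol other than its locus code in the RefSeq table (0 of 31), all 31 were listed there as protein coding, and no function was assigned to any of them here.

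The samples were total RNA of wild-type plants of ecotype Columbia 0, 6 of leaves and 6 of stem material, with no treatment, age or plant number in the labels. The labels number the samples 1 to 6 in each tissue and do not say whether they came from separate plants. In such bulk samples, fewer cells of a type and less RNA per cell cannot be told apart. Deposited intensities ran from 0 to 100 on every array, and 19.1 to 22.8% of probes were at 0 in leaf against 13.9 to 15.6% in stem. Of 13 listed leaf markers, 5 had a tested probe of their own (LHB1B2, PSAN, PSBY, PSBW and PRK), and none of the 5 was at 0 in any sample. Summed over the 5, deposited intensity ranged from 62.9 to 122 across the leaf samples and from 77.0 to 142 across the stem samples, and their part in the results was not tested. PSBW was higher in stem by 1.62 and PSAN by 0.14, and LHB1B2, PSBY and PRK differed by -0.21, -0.13 and -0.10 (stem minus leaf, log2). The leaf label thus gained no support from these markers. None of 19 listed markers of xylem, fibres and phloem had such a probe, so the stem label could not be checked in this way. Within a tissue, samples with adjoining numbers (1 with 2, 3 with 4, 5 with 6) were more alike than other samples, with rank correlations over the tested probes of 0.83 to 0.86 against 0.64 to 0.77 in leaf and 0.95 to 0.98 against 0.80 to 0.90 in stem. The labels do not mention this grouping. The 6 samples of a tissue may therefore hold fewer independent ones.

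The difference between the tissue means, as a fold, ran from 2.04 to 9.39 over the 31 genes, with a median of 2.59. Between 2-fold and 3-fold lay 21 genes, 4 lay between 3-fold and 4-fold, and 6 lay above 4-fold. The median difference was -1.37 (stem minus leaf, log2 of quantile-normalized intensity), beside a median of 0.13 over all 2657 tested probes and 0.17 over the tested locus-named genes. In a limma fit over all tested probes 19 of the 31 passed the threshold as lower in stem, where 10.1% of all tested probes did. For 10 of the 31 every stem value lay under every leaf value, where this held for 6.62% of all tested probes. The same contrast chose the genes, so nothing is read from these counts. The first was 12 without the samples of number 4 or of number 5, beside 176 and 161 of 2657 tested probes. It was 9 in the deposited values, beside 160 of 2657, and 1 of 28 with neighbouring numbers averaged, beside 19 of 2509. The second was 21 of 26 without the samples numbered 1 and 2 and 18 without those of number 1 alone, where fewer values per tissue remained. No share over all tested probes is given for these counts without overlap. The other 21 genes had overlapping leaf and stem values. Stem was lower in all 6 numbers for 15 of the 19 genes that had 6 numbers to compare.

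**Figure D1:**
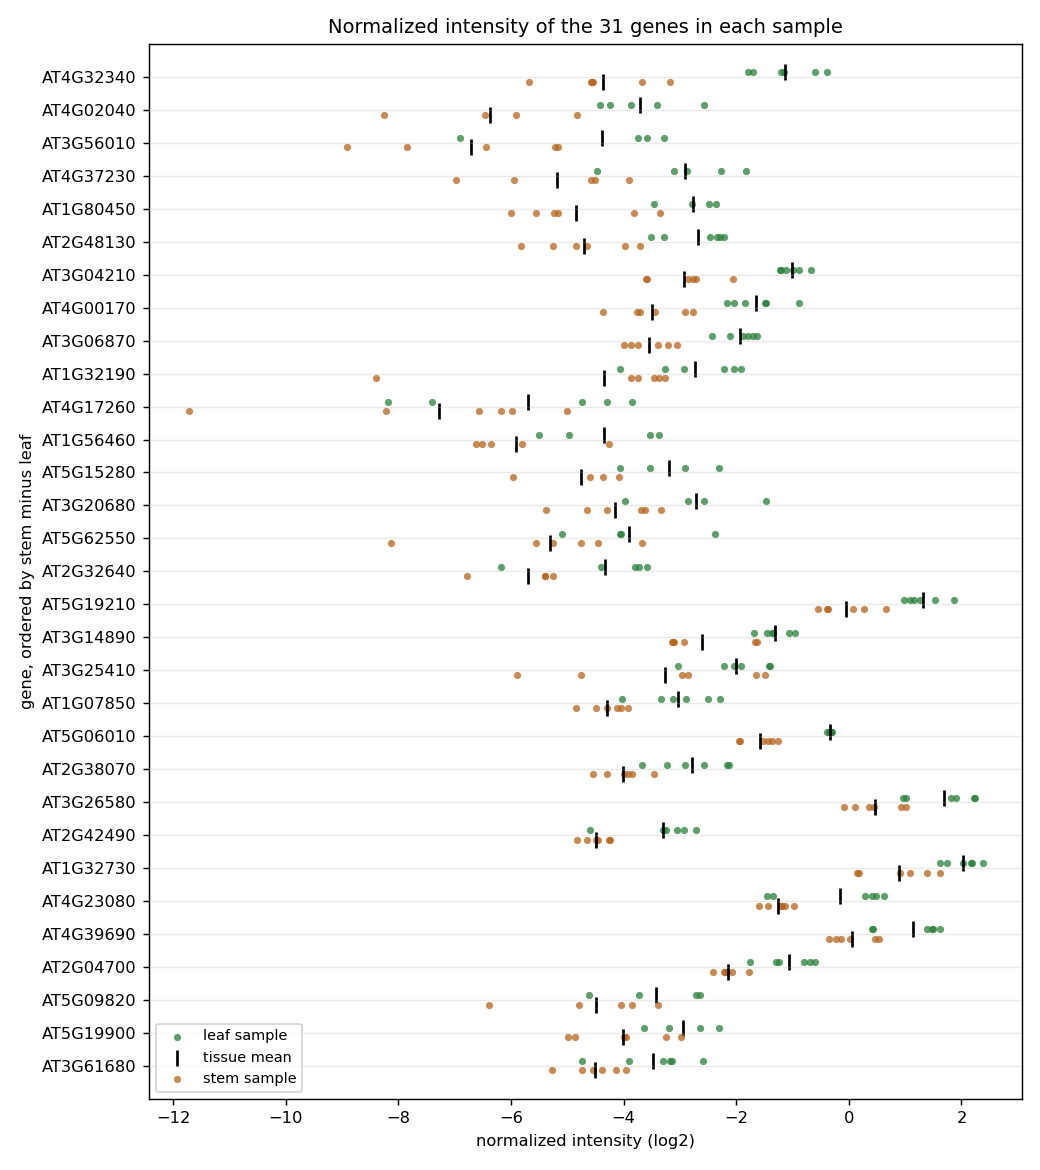
Normalized intensity (x axis, log2) of the 31 genes (y axis, ordered from the largest to the smallest difference) in 6 leaf samples (green) and 6 stem samples (brown), with black bars at the tissue means; samples at 0 are not drawn. For 10 genes, AT4G32340 and AT3G04210 among them, the green and brown points do not overlap, and AT5G06010 has the narrowest spread in leaf.

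Most of the genes were dim. Ranked by mean intensity among all tested probes, 18 fell in the dim class, 7 in the middle class and 6 in the bright class, where each class held an equal number of tested probes. All 12 genes that were at 0 in at least 1 sample were in the dim class. The median SD within leaf was 0.80 (log2) in the dim class, 0.44 in the middle class and 0.44 in the bright class, and within stem it was 0.91, 0.59 and 0.40. The dim genes were thus measured with the widest spread. Tissues did not overlap for 3 of the 18 dim genes, 5 of 7 in the middle and 2 of 6 in the bright class. No share over all tested probes of each class is given, so nothing is read from these counts. Values set side by side below compare each gene with itself between tissues; the levels of different probes serve only to rank them by brightness.

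**Figure D2:**
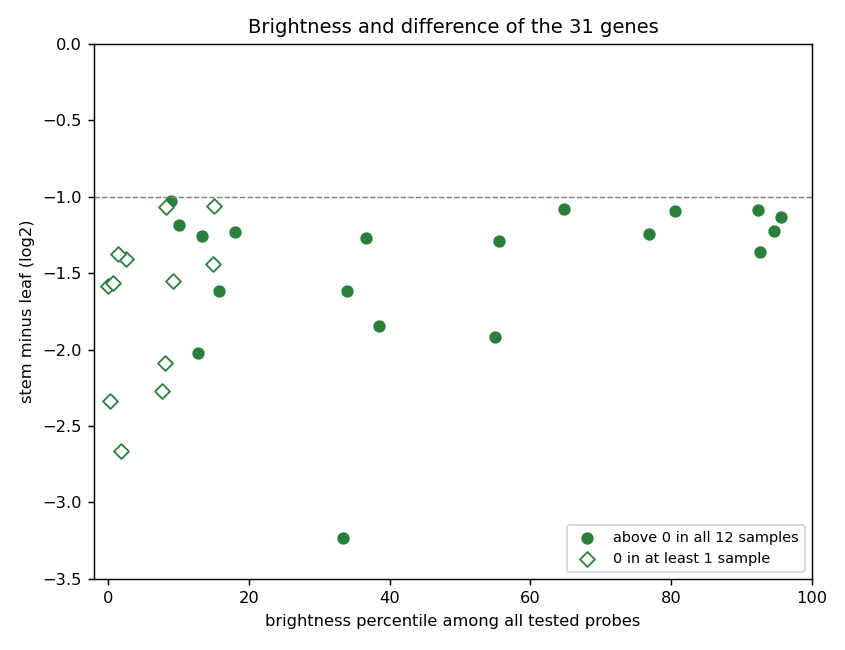
Difference between stem and leaf (y axis, log2) of the 31 genes against their brightness percentile among all 2657 tested probes (x axis). Open diamonds are the 12 genes at 0 in at least 1 sample, all in the dim class; the dashed line is the 2-fold limit that chose the genes.

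AT4G32340 had the largest difference of the 31. Its leaf values were -1.79 at the lowest, -1.18 at the median and -0.39 at the highest, and its stem values were -5.68, -4.56 and -3.18 (log2). The gap between the lowest leaf sample and the highest stem sample was therefore wider than 1 on the log2 scale. Its stem mean was 9.39-fold lower, a difference of -3.23 ± 0.42 (SE, n = 6 per tissue). In deposited intensity it lay between 0.234 and 0.548 in leaf and between 0.0324 and 0.132 in stem. It also differed by at least 2-fold within each pair of neighbouring numbers, by -2.38, -3.95 and -3.36 in turn.

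AT3G04210, AT4G00170 and AT3G06870 were the next genes of the middle class, and none of them had overlapping tissues. AT3G04210 had a lowest, median and highest value of -1.22, -1.05 and -0.67 in leaf and of -3.60, -2.82 and -2.05 in stem, a difference of -1.91 ± 0.29 (SE). AT4G00170 lay at -2.17, -1.67 and -0.88 in leaf and at -4.37, -3.57 and -2.77 in stem, a difference of -1.84 ± 0.34. AT3G06870 lay at -2.42, -1.83 and -1.64 in leaf and at -3.99, -3.57 and -3.05 in stem, a difference of -1.62 ± 0.28. After quantile normalization all 3 were tighter in leaf than in stem, with SDs in leaf of 0.21, 0.47 and 0.30 and in stem of 0.59, 0.59 and 0.38. This did not hold in deposited intensity. There the leaf SDs were 0.078, 0.154 and 0.076 beside means of 0.433, 0.292 and 0.229. The stem SDs were 0.028, 0.021 and 0.025 beside means of 0.173, 0.120 and 0.115. Leaf exceeded stem in 6 of 6 numbers for each, and within numbers 1 and 2 the differences were the smallest of the 3 pairs, at -1.22, -1.003 and -1.07.

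The other genes of the middle class were AT3G14890, AT3G25410 and AT2G04700, and their samples were less evenly parted. AT3G14890 had a narrow leaf range, from -1.69 to -0.96, and 2 kinds of stem value after quantile normalization. Stem samples 1 and 2 averaged -1.65, inside the leaf range, and the pairs 3 and 4 and 5 and 6 averaged -3.03 and -3.12. This split differed in deposited intensity, where stem samples 1 to 6 read 0.285, 0.289, 0.225, 0.255, 0.138 and 0.139. There, samples 3 and 4 lay nearer to 1 and 2 than to 5 and 6. AT3G25410 also had stem samples 1 and 2 at leaf level, with a mean of -1.57 against -1.66 in leaf 1 and 2, and its difference of -1.27 ± 0.66 (SE) was widest in numbers 3 and 4, where stem averaged -5.33. AT2G04700 lay at -1.75, -1.02 and -0.61 in leaf and at -2.42, -2.18 and -1.78 in stem, so that its tissues parted by a small margin.

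The 6 genes of the bright class were AT1G32730, AT3G26580, AT5G19210, AT4G39690, AT4G23080 and AT5G06010. They had no zeros, and their differences ran from -1.36 to -1.08, smaller than those of many dim genes. AT5G19210 lay at 0.98, 1.21 and 1.86 in leaf (lowest, median, highest) and at -0.56, -0.14 and 0.65 in stem, with no overlap and a difference of -1.36 ± 0.23 (SE), or 2.57-fold. AT1G32730, which ranked highest in brightness, lay at 1.62, 2.096 and 2.38 in leaf and at 0.14, 0.99 and 1.63 in stem, a difference of -1.13 ± 0.26. AT3G26580 lay at 0.96, 1.85 and 2.23 in leaf and at -0.09, 0.41 and 1.02 in stem, a difference of -1.23 ± 0.27. The last 2 genes overlapped between tissues only at the edges. AT1G32730 did not overlap in deposited intensity, where leaf ran from 3.12 to 5.43 and stem from 1.39 to 2.89.

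AT5G06010 stood out among the bright genes for its even leaf values. All 6 leaf samples lay between -0.38 and -0.31, with an SD of 0.029, while stem ran from -1.96 to -1.26 with an SD of 0.30. Its difference was -1.24 ± 0.18 (SE), the smallest error of the 31 genes. In deposited intensity the leaf samples ran from 0.593436 to 0.894 and the highest stem sample reached 0.593623, so the tissues touched there.

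AT4G23080 and AT4G39690 split the leaf samples. AT4G23080 averaged -1.40 in leaf samples 1 and 2, close to the -1.32 of stem samples 1 and 2, whereas leaf samples 3 and 4 averaged 0.39 and leaf samples 5 and 6 averaged 0.52. The stem samples of this gene were all alike, from -1.60 to -0.97. AT4G39690 showed a milder form of the same pattern, with leaf means of 0.42, 1.43 and 1.55 over the 3 pairs of numbers and stem means of -0.29, -0.06 and 0.50. Without leaf samples 1 and 2 the difference of AT4G23080 was -1.69 in place of -1.09.

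In the dim class, 6 genes were above 0 in all 12 samples: AT2G48130, AT1G32190, AT1G07850, AT2G38070, AT2G42490 and AT3G61680. AT2G48130 was the clearest, at -3.51, -2.41 and -2.21 in leaf and -5.83, -4.75 and -3.70 in stem, a difference of -2.02 ± 0.44 (SE) or 4.07-fold with no overlap. Over the pairs of numbers it differed by -2.05, -2.46 and -1.56. AT1G07850, AT2G38070 and AT2G42490 differed by -1.26, -1.23 and -1.18 and were lower in stem in 6 of 6 numbers, but their tissue ranges overlapped. AT1G32190 differed by -1.62 ± 0.78, and 1 stem sample held much of that. Stem sample 1 was at -8.41 and the other stem samples between -3.88 and -3.27, and without number 1 the difference was -1.05.

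Of the 31 genes, 12 were at 0 in some samples, and these zeros lay more often in leaf than in stem. Over the 31 genes, 20 of 186 leaf values and 10 of 186 stem values were 0. Each of the 12 genes had a zero in leaf, 7 of them also in stem and 5 in leaf only. A zero is missing in the normalized values, so the leaf means of these genes leave out the samples that read lowest. The sources used here do not say what an exact 0 stands for.

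AT4G02040, AT3G56010, AT4G37230 and AT1G80450, all at 0 in some samples, had the largest differences after AT4G32340. AT4G02040 ran from -4.42 to -2.58 in 5 leaf samples and from -8.26 to -4.83 in 4 stem samples, a difference of -2.67 ± 0.79 (SE). In deposited intensity its medians were 0.0393 in leaf and 0.0172 in stem. AT3G56010 differed by -2.34 ± 1.11 on 4 leaf and 5 stem values, with leaf sample 4 at -6.90, inside the stem range. AT4G37230 differed by -2.27 ± 0.69 and by a similar amount within each pair of numbers, at -1.86, -1.98 and -1.89. In deposited values its pairs differed by -1.84, -0.01 and -0.91. AT1G80450 differed by -2.09 ± 0.59, with -0.62 for numbers 1 and 2, -3.00 for 3 and 4 and -2.84 for 5 and 6, and it was at 0 in 2 leaf samples. These 4 genes had larger differences than the 6 bright genes, and standard errors of 0.59 to 1.11 against 0.18 to 0.36.

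AT5G15280 was the only other gene with zeros whose measured values did not overlap. It lay at -4.07, -3.22 and -2.31 in 4 leaf samples and at -5.96, -4.48 and -4.08 in 4 stem samples, a difference of -1.55 ± 0.62 (SE). All samples numbered 5 and 6 were at 0 for this gene in both tissues, so it was compared in numbers 1 to 4 alone. AT1G56460, AT3G20680, AT5G62550, AT2G32640, AT5G09820 and AT5G19900 had overlapping tissues and differences from -1.57 to -1.06. AT4G17260, the dimmest, had a difference of -1.58 ± 1.32, with -5.23 within numbers 1 and 2, -0.23 within 3 and 4 and 0.23 within 5 and 6. Its stem sample 1 was at -11.72, and without number 1 the difference was -0.44.

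After quantile normalization, the difference was smallest in the samples numbered 1 and 2 for most of the genes. The median over the genes was -0.78 within numbers 1 and 2, -1.84 within 3 and 4 and -1.62 within 5 and 6. Stem was lower in 26 of 30 genes within numbers 1 and 2, in 31 of 31 within 3 and 4 and in 28 of 29 within 5 and 6. Of the 28 genes with a value in all 3 pairs, 22 had their smallest difference in numbers 1 and 2. The genes that were not lower in stem there were AT5G62550 (0.47), AT3G25410 (0.08), AT4G23080 (0.08) and AT5G19900 (0.03). A difference of at least 2-fold was reached by 12 genes in numbers 1 and 2, 26 in 3 and 4 and 25 in 5 and 6. This pattern depended on the normalization. In deposited values AT4G17260, AT3G20680 and AT3G56010 were higher in stem within numbers 3 and 4, by 1.63, 0.63 and 0.51. So were AT3G61680, AT5G09820, AT2G38070, AT1G07850, AT1G32190 and AT2G42490, by 0.48, 0.41, 0.30, 0.14, 0.06 and 0.05. The rest of the 31 genes were lower in stem within that pair. AT3G04210 kept its smallest deposited difference in numbers 1 and 2, at -1.10 against -1.56 and -1.31.

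**Figure D3:**
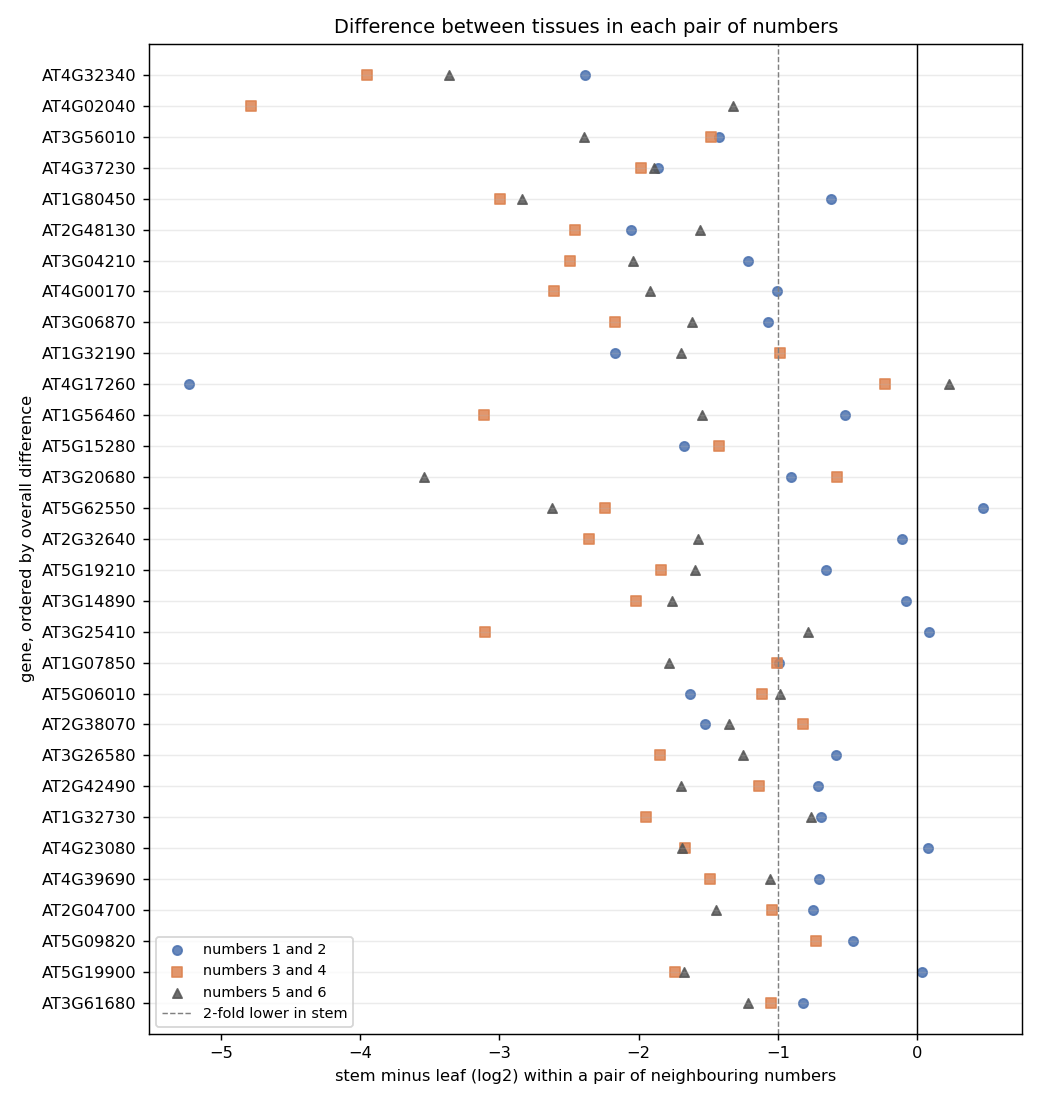
Difference between stem and leaf (x axis, log2 after quantile normalization) of the 31 genes (y axis) within numbers 1 and 2 (circles), 3 and 4 (squares) and 5 and 6 (triangles). The dashed line marks 2-fold lower in stem. The circles lie nearest to 0 for 22 of the 28 genes with all 3 values, and AT4G17260 is the clearest exception, with its circle at -5.23.

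The leaf side of that smaller difference was seen in more of the genes than the stem side. Leaf samples 1 and 2 averaged less than leaf samples 3 to 6 in 24 of 31 genes, with a median gap of -0.35, and stem samples 1 and 2 averaged more than stem samples 3 to 6 in 19 of 30 genes, with a median gap of 0.52. Among the 19 genes with 12 values above 0, leaf samples 1 and 2 averaged less in 16, with a median gap of -0.32, and stem samples 1 and 2 averaged more in 10, with a median gap of 0.16. Sample by sample, the median over these 19 genes was -1.70 and -1.50 in leaf samples 1 and 2 and -1.36 to -1.22 in the other leaf samples. For the same genes it was -2.05 and -2.71 in stem samples 1 and 2 and -3.74 to -3.11 in the other stem samples. In deposited intensity, zeros counted, the median over the 31 genes was 0.0641 and 0.0648 in stem samples 1 and 2. It was 0.130, 0.120, 0.0820 and 0.0798 in stem samples 3 to 6, so stem samples 1 and 2 were not higher there. In leaf it was 0.126 and 0.128 in samples 1 and 2 and 0.133 to 0.182 in the others. Without the samples numbered 1 and 2 of both tissues, 26 of the 31 genes still had at least 3 values per tissue. Of these, 25 were at least 2-fold lower and 21 had no overlap. No share over all tested probes is given for that count without overlap.

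Among the other leaf-high probes, numbers 1 and 2 also had the smallest median difference after quantile normalization. The 270 other tested probes that were at least 2-fold lower in stem had median differences of -1.07, -1.63 and -1.67 over the pairs of numbers, and 149 of the 241 with all 3 values had the smallest in numbers 1 and 2. For the 15 leaf-high genes with a symbol the medians were -1.05, -1.80 and -1.75. Whether the locus-named genes differ from these probes was not tested. Among the tested locus-named genes, 83 were at least 2-fold higher in stem, and their median brightness percentile was 60.1, against 15.1 for the 31 leaf-high genes.

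The scaling of the arrays moved the differences, and which genes it moved most depended on the scaling. In the deposited values, with zeros left out and no normalization, all 31 genes were still lower in stem, but only 12 by at least 2-fold, and the median was -0.86. In the dim class the median went from -1.50 to -0.59, in the middle class from -1.62 to -0.96 and in the bright class from -1.18 to -1.07. AT5G19210, AT3G26580 and AT1G32730 had nearly equal differences in both, with -1.31, -1.21 and -1.17 in the deposited values. AT2G32640 was at -0.01 there. With zeros counted, the mean deposited intensity (linear) was higher in stem for AT4G17260, AT5G62550, AT5G09820 and AT5G19900. Their means were 0.0277, 0.0542, 0.0680 and 0.0890 in stem, against 0.0213, 0.0482, 0.0644 and 0.0714 in leaf. For the rest of the 31 genes that mean was lower in stem. With arrays centred on their medians the bright genes moved more, from a median of -1.18 to -1.65, and AT5G19210, AT3G26580 and AT1G32730 differed by -1.88, -1.79 and -1.74. The median of the dim class was -1.18 under that centring and that of the middle class was -1.53. The median over all tested probes moved as well, to 0.62, so the genes' median relative to it was -1.48 in the deposited values, -1.48 when arrays were centred on their medians and -1.50 after quantile normalization.

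Tissues did not overlap in the deposited values, zeros counted, for 6 genes. These were AT4G32340, AT3G04210, AT4G00170, AT3G06870, AT5G19210 and AT1G32730, all from the middle or bright class. No share over all tested probes is given for this count, and nothing is read from it. With zeros set to the lowest value of the array, AT3G20680 and AT5G19900 turned to higher in stem, by 0.87 and 1.01. Both had zeros in 2 leaf samples and in no stem sample. AT1G80450 and AT5G62550 had zeros in as many samples of each tissue and stayed lower in stem, at -1.19 and -0.63.

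**Figure D4:**
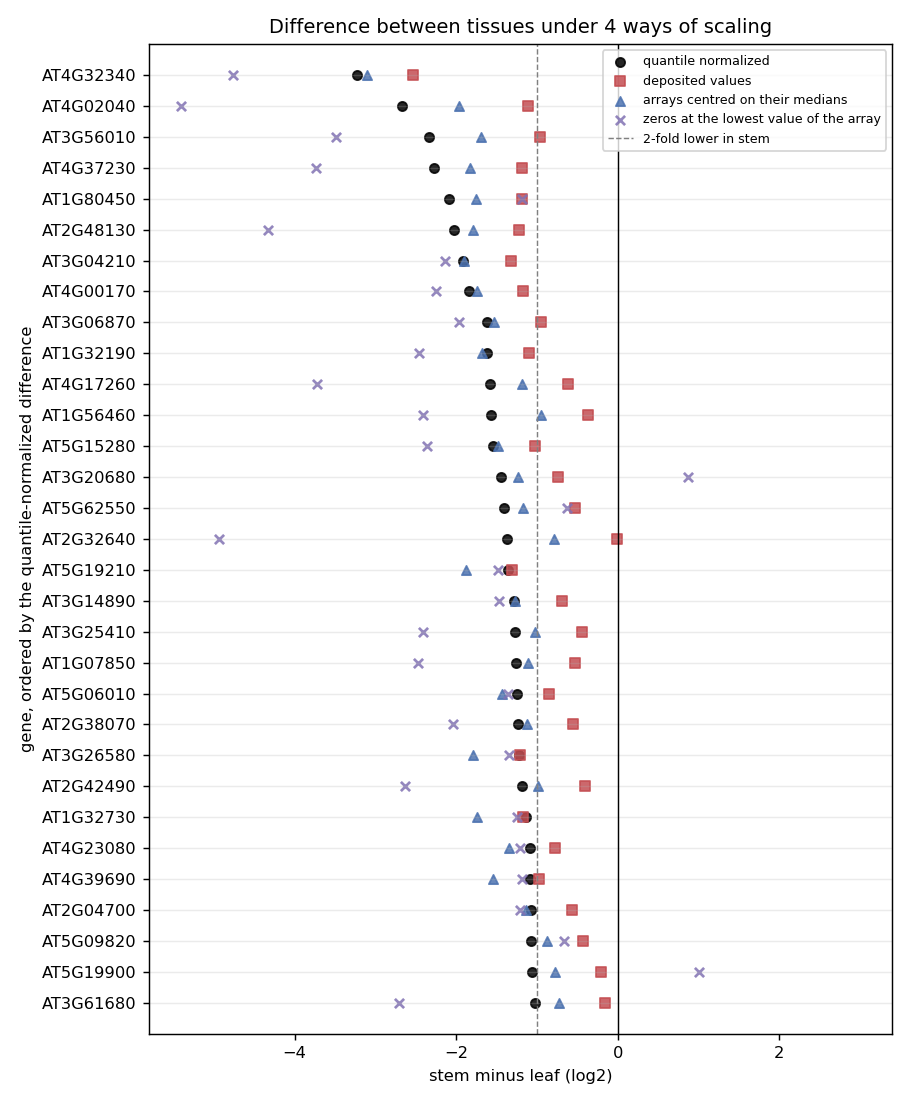
Difference between stem and leaf (x axis, log2) of the 31 genes (y axis) after quantile normalization (black), in deposited values (red), with arrays centred on their medians (blue) and with zeros at the lowest value of the array (violet crosses). All red squares lie at or left of 0 but only 12 pass the dashed 2-fold line, and 2 crosses, AT3G20680 and AT5G19900, lie right of 0.

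The 2-fold limit did not part 2 kinds of gene. Just inside it lay AT5G09820 (-1.07), AT5G19900 (-1.06) and AT3G61680 (-1.03). Just outside lay AT1G11800 (-0.99), AT1G62250 (-0.96) and AT2G43990 (-0.96). The standard errors of these 6 ran from 0.44 to 0.70, far wider than their distance from the limit. Leaving out the samples of any 1 number, 20 of the 31 genes stayed at least 2-fold lower in all 6 repeats. The difference moved by more than 1.5 times for 5 genes. These were AT1G32190 (-1.05 without number 1), AT4G17260 (-0.44 without number 1), AT3G20680 (-0.94 without number 6), AT5G62550 (-0.90 without number 6) and AT5G09820 (-0.60 without number 6).

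The genes were spread over all 5 chromosomes. Chromosome 1 held 5 of them, chromosome 2 held 5, chromosome 3 held 8, chromosome 4 held 7 and chromosome 5 held 6, between 4.5% and 9.64% of the tested locus-named genes of each. No gene of the 31 lay within 3 protein-coding genes of another. AT4G23080 was 2 genes from IQD22, an IQ-domain gene, which had a difference of -2.15 on its own probe, and 3 genes from AT4G23110 at -0.67. AT2G48130 was 2 genes from PAC, a gene needed for chloroplast development, which was higher in stem by 0.61. The other 29 genes had no neighbour within that distance on a tested probe with 1 gene.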

How the data were processed

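The authors deposited 1 table of linear array intensity for 3439 probes and 12 samples, on a scale from 0 to 100 seen in the values. Background correction, array scaling and the sense of 0 are not described in the sources used here. Precision is limited by the number of arrays. Intensities were converted to log2 with zeros missing, and quantile normalization was run over the 12 arrays. Tested were the 2657 probes above 0 in 4 or more leaf samples and 4 or more stem samples. The gene table gave 692 probes 1 gene and 870 several, and left 1877 unnamed; a gene with several probes was taken from the brightest. Names were checked by gene ID against RefSeq's gene list (TAIR10.1), from which only names and gene order were taken. The comparison was fitted with limma 3.58.1 (R 4.3.3, statmod 1.5.0; lmFit and eBayes with trend and robust moderation), as a two-sided test. Adjustment was by Benjamini-Hochberg over every tested probe, with a threshold of 0.05. Since nothing says that the samples came from separate plants, p-values reflect the spread between samples, possibly technical. The fit was tested on simulated data in which the samples were drawn independently, which does not cover the likeness between neighbouring numbers. Deviations of same-numbered leaf and stem samples from their tissue means correlated at 0.18 to 0.24. The main fit did not pair the samples by number, and a fit with the number as a block was an alternative. The labels give only the number. Figures used matplotlib 3.10.9.

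The genes, the marker lists and the alternatives were chosen with earlier results of these data known. Described in full were the 8 largest differences without overlap and the 3 brightest genes. The 3 genes on either side of the limit were given by their differences and the range of their standard errors. Other genes were named because all 31 are accounted for.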

Additional observations from a re-analysis of the deposited data

Results flagged for a closer look

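In 4 of 62 groups of samples, 1 group per gene and tissue, a single sample stood far from the rest by its gap to the nearest other sample; chance sets about 1 in 20 groups apart in this way. AT1G32190 was at -8.41 in stem sample 1, with the other stem samples from -3.88 to -3.27. AT2G42490 was at -4.60 in leaf sample 2, with the other leaf samples from -3.29 to -2.71. AT3G56010 was at -6.90 in leaf sample 4, with the other 3 measured leaf samples from -3.74 to -3.29. AT2G32640 was at -6.79 in stem sample 4, with the other 3 measured stem samples from -5.39 to -5.26. In each of the 4 the lone sample was the lowest, and all 4 genes were in the dim class.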

How the results depend on the processing

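With the replicate number as a block, 17 of the 31 genes passed the threshold, against 19 without it, and 18 passed with neighbouring numbers as a block, which was chosen after seeing the data, or with eBayes without trend and robust variance. Over all 2657 tested probes, 293, 370 and 253 passed as lower in stem in these settings in turn, against 269 in the main fit. In the deposited values 9 passed, beside 160 of 2657 tested probes. There, 12 genes were at least 2-fold lower, 6 had no overlap and the median difference was -0.86. With zeros at the lowest value of the array the median was -2.135 and AT5G19900 reversed to 1.01, and the reason for the shift was not tested. Among probes with 12 values above 0, only 19 of the genes could be counted, all 2-fold lower. The count without overlap was 10, and it was 21 without the samples numbered 1 and 2, 19 without leaf samples 1 and 2 and 18 with neighbouring numbers averaged. These later counts rest on fewer values, and no share over all tested probes is given for them. With neighbouring numbers averaged only 1 of 28 genes passed, beside 19 of 2509 tested probes. Leaving out 1 number at a time, 12 to 18 genes passed (12 without number 4 or 5), beside 161 to 291 of 2657 tested probes. In these fits 26 to 31 genes were at least 2-fold lower and 11 to 18 had no overlap (18 without number 1, 15 without number 2). The median difference in these fits ran from -1.52 to -1.30. No share over all tested probes is given for the counts without overlap in these fits or in the deposited values. The other planned settings gave counts within 1.5 times the main ones. Dim spots with zeros limit what the table can show for 12 of the genes.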

Other observations

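Among 160 locus-named genes with too few values above 0 to be tested, 6 were above 0 in at least 4 leaf samples and in fewer than 4 stem samples, while 71 showed the opposite and 83 were above 0 in fewer than 4 samples of each tissue. AT4G05070 was the clearest of the 6. It was above 0 in 6 of 6 leaf samples, with a median deposited intensity of 0.252, and listed at 0 in all stem samples but 1, which reached 0.365. AT5G22620 was above 0 in 4 leaf samples, up to 0.0237, and was listed at 0 in all 6 stem samples. The other 4 were AT2G27680, AT5G46420, AT2G25830 and AT3G47080, above 0 in 4 leaf samples each and in 1, 1, 3 and 3 stem samples.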
